A study of Rattus norvegicus with 6 samples.

Results

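Guidance cues are ligands and receptors first known for steering growing axons, and the same molecules position migrating cells and vessels in the embryo. This account follows the semaphorins with their plexin and neuropilin receptors, the ephrins with their Eph receptors, the Slit ligands with Robo, and the netrins with Unc5. Members were all array probes whose gene name in the files belonged to one of these families, with the brightest probe taken for each gene. The rule found 75 probes of 59 genes, of 30367 probes and 19331 gene names on the array. They were 32 genes for ligands and 27 for receptors. The family members Efna3, Ephb4, Plxna1, Plxna4, Plxnb1, Plxnc1, Sema6a and Unc5d were not analysed here, and Ntn4 carries another name in the files and lay outside the rule.

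Heart primordia, the crescent of tissue that becomes the heart tube, were dissected from Wistar rat embryos on embryonic day 10. In the pre-heartbeat group (n = 3) the centre of the primordium was still flat, whereas in the post-heartbeat group (n = 3), from slightly older embryos by somite number, it was raised. The labels name no transgene, mutation or treatment, the groups differed in stage and beating together, and each sample was hybridised to 1 single-colour array. The design text calls the samples biological replicates but does not say how many embryos made up a sample, so p-values measure only the spread between these samples.

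Values are log2 processed signals less the 75th percentile of their array, so that 0 is a bright probe. They are compared within a probe and never between probes. Between 39375 and 41327 of 58717 spots per array were well above background, and 0 spots were saturated. The arrays lay on 2 slides with both groups on each. Pre-heartbeat replicate 1 shared slide 1 with post-heartbeat replicates 1 and 2, and the remaining 3 arrays were on slide 2. The labelled tissue was checked on markers. All 19 striated muscle genes and all 13 cardiac regulators on the array were well above background on all 6 arrays. The mean level of the muscle list lay between 2.15 and 2.67 before and between 3.37 and 3.57 after heartbeat initiation. All 14 endothelial and all 11 yolk sac endoderm markers were also well above background on all 6 arrays. Of 14 neural ectoderm and 12 paraxial mesoderm markers on the array, 6 and 5 were not well above background on any array. Most spots of an array were well above background, so detection alone does not show that cells of a type were present. In such bulk tissue, fewer cells of a type and less RNA per cell cannot be told apart.

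Semaphorins are secreted or membrane-bound proteins that mostly repel cells. The secreted class 3 members bind a neuropilin that pairs with a plexin, and the plexin passes the signal to small GTPases and the cytoskeleton. Class 3 semaphorin signalling through plexin D1 and the neuropilins is known for its part in septating the outflow tract and shaping vessels. Ephrins and Eph receptors are both tied to the membrane and signal at cell contacts, in both directions, which sorts cells and forms boundaries. Slit proteins are large secreted ligands of Robo receptors, and Slit-Robo signalling is known in heart tube formation and in cardiac chamber and valve development. Netrins are secreted relatives of laminin that attract or repel cells, and Unc5 receptors carry the repulsive response.

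What an array measures is the signal of 60-base probes. One probe is shown for each of 5 genes described in detail. For Slit3 and Nrp2 it is the probe behind their values. For Robo2, Sema3c and Ephb1 it is the second probe, which lies upstream of the brightest probe on the strand of the gene. The main values of these last genes come from the brightest probe, which is not shown. Capitals mark a stop codon that closes the reading frame starting at the first base, and in the other 3 probes that frame holds no stop codon. In each of these 3 probes another frame is open as well, so an open frame does not identify the coding frame.
Slit3: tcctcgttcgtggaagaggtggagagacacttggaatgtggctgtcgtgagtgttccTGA
Robo2: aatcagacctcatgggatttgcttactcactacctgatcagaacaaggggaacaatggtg
Sema3c: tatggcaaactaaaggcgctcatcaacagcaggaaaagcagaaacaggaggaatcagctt
Nrp2: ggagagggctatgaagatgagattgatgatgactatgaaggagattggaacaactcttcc
Ephb1: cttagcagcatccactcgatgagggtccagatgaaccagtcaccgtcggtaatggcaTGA

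In the array annotation, on the rn4 genome, the Slit3 probe lies at chr10:20576283-20576342 on the plus strand and the Robo2 probe shown at chr11:12703496-12703552 on the minus strand. The Sema3c probe shown lies at chr4:13742169-13742228 on the minus strand. The Nrp2 probe spans chr9:61457268-61459905 on the plus strand, longer than the probe itself. The Ephb1 probe shown is the second one of its gene, at chr8:106873258-106873317 on the minus strand. The annotation gives no exon or UTR for them.

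Of the 59 genes, 41 were well above background on all 6 arrays. Another 10 were not well above background on any array: the ligands Sema3d, Sema3e, Sema5b, Sema7a, Ntn1 and Ntn3, and the receptors Epha3, Epha6, Epha8 and Plxnb3. Netrins were therefore nearly unseen by these probes, with Ntn5 the only one of 3 that could be tested. A gene entered the tests when its probe exceeded background clearly in all 3 arrays of either group, which kept 46 genes and left out 13. The remaining 3 of those 13 were Sema4f, Robo3 and Efna5. Of the 46, 5 passed through 1 group alone, Sema3c and Sema4d through the post-heartbeat group and Nrp2, Ntn5 and Epha5 through the pre-heartbeat group, so that a difference in them was partly set by the filter.

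No guidance gene passed the threshold in limma, a linear model with moderated variances fitted to all 19299 tested probes. At an adjusted p under 0.05 by the Benjamini-Hochberg method it called 0 of the 46, where 0.14% of all probes were called. With the slide as a block it again called 0, where 1.62% of all probes were called. At an unadjusted p under 0.05, limma gave 8 of the 46, where 7.01% of all probes passed, and 9 with the block, where 9.66% passed. The study's methods selected genes by fold change and a Tukey HSD test, applied here as at least 1.5 fold together with a p under 0.05 from a pooled comparison of the 2 groups, left unadjusted over genes because the methods name no adjustment. Slit3, Robo2 and Sema3c, 3 of the 46 genes, met this selection as higher in the post-heartbeat group, where 1.89% of all probes did. None of the 46 met it as lower, where 1.15% of all probes did. Of the 46, 5 had groups that did not overlap with the post-heartbeat group higher, where 5.38% of all probes did. Another 5 did not overlap with the post-heartbeat group lower, where 6.14% of all probes did. Among these 10 genes, Sema3c, Sema4d, Nrp2 and Ntn5 passed the filter only through the group where they were higher. With a filter on all 6 arrays, 3 genes were higher and 3 lower without overlap. Under that filter only Slit3 and Robo2 met the selection. The 10 genes are drawn by array in the plot of genes whose groups did not overlap.

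**Figure D1:**
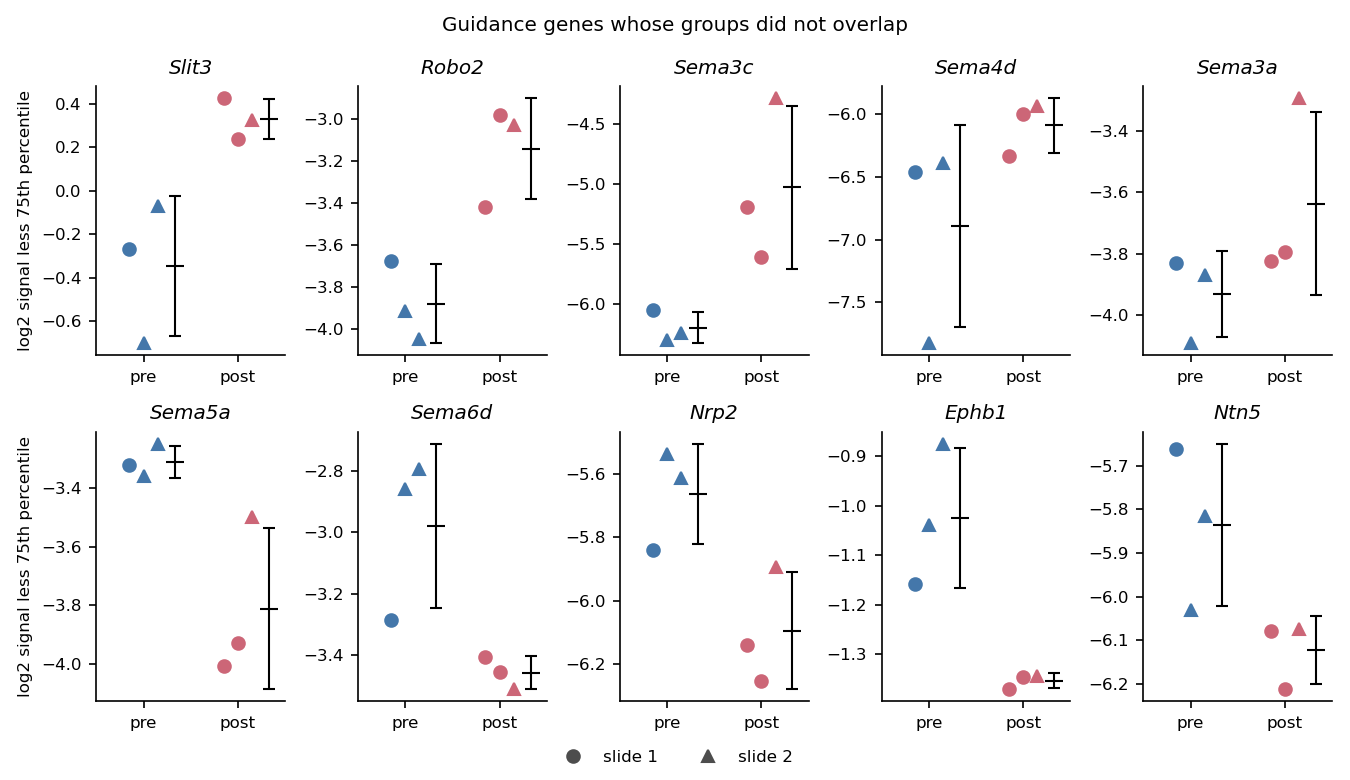
Log2 processed signal less the 75th percentile of the array (y axis, a separate range for each gene) in the pre-heartbeat and post-heartbeat groups, with 1 point for each of 6 arrays, circles for slide 1 and triangles for slide 2, and the mean ± SD of 3 arrays to the right. In the upper row the 3 post-heartbeat arrays lie above the 3 pre-heartbeat arrays, and in the lower row they lie below them, by a margin that in Sema3a, Sema4d, Nrp2 and Ntn5 is small beside the spread.

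Slit3 is a secreted ligand of Robo receptors. It was measured at -0.27, -0.70 and -0.07 in pre-heartbeat replicates 1, 2 and 3 and at 0.43, 0.24 and 0.33 in post-heartbeat replicates 1, 2 and 3. All post-heartbeat arrays lay above all pre-heartbeat arrays, among which replicate 2 was the lowest. The means were -0.35 ± 0.32 and 0.33 ± 0.09 (SD, n = 3), a difference of 0.68 ± 0.19 (SE) on the log2 scale or 1.60 fold. The adjusted p was 0.355 in limma and 0.206 with the slide as a block. The exact permutation test gave its smallest possible p with 3 arrays a group, 0.1 (two-sided), as it did for every gene here whose groups did not overlap. The difference was 0.60 within slide 1 and 0.71 within slide 2. In the pooled comparison of the methods, p was 0.0254 without and 0.0687 with the slide as a block, so Slit3 left the selection with the block.

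Robo2 is a receptor of Slit ligands. Its brightest probe gave -3.68, -3.91 and -4.05 in pre-heartbeat replicates 1, 2 and 3 and -3.42, -2.98 and -3.02 in post-heartbeat replicates 1, 2 and 3. The groups did not overlap, and the nearest values of both groups were those of replicate 1, both on slide 1. The difference was 0.74 ± 0.18 (SE), or 1.67 fold, with an adjusted p of 0.257 in limma and 0.133 with the slide as a block. It was 0.48 within slide 1 and 0.96 within slide 2. The second probe of Robo2, with the sequence shown above, gave -4.24, -4.34 and -4.12 before and -3.75, -3.51 and -3.13 after heartbeat initiation, again without overlap. Its difference was 0.77 ± 0.19 (SE), with an adjusted p of 0.266 in limma and 0.0587 with the block. Another, dim probe was not well above background on all arrays of either group. After normexp background correction, a model-based alternative to subtraction, the difference of the brightest probe was 0.44, and Robo2 was not in the selection.

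The other Slit and Robo genes differed less. Slit1 and Slit2 had differences of 0.42 ± 0.19 and 0.05 ± 0.26 (SE), so that all 3 Slit ligands had higher means in the post-heartbeat group, with and without the block and under each normalization, and none passed the limma threshold. The mean of Slit2 was lower after heartbeat initiation without pre-heartbeat replicate 2 or post-heartbeat replicate 3. Slit2 was measured at -0.01, -0.22 and 0.42 before and at -0.17, -0.08 and 0.61 after heartbeat initiation, and its groups overlapped, with replicate 3 highest in both. Robo1, a receptor of Slit ligands, and Robo4, an endothelial member of the family, had differences of -0.21 ± 0.20 and 0.16 ± 0.19 (SE) with overlapping groups. Robo3, which mainly acts in commissural neurons, was well above background on 1 array only.

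Sema3c, a secreted class 3 semaphorin known for guiding cardiac neural crest into the outflow tract, passed the filter through the post-heartbeat group alone. Its brightest probe was measured at -6.05, -6.30 and -6.24 in pre-heartbeat replicates 1, 2 and 3, not well above background on any of them. It was measured at -5.19, -5.61 and -4.29 in post-heartbeat replicates 1, 2 and 3, well above background on all. The groups did not overlap, and post-heartbeat replicate 3 stood above the other 2. The pre-heartbeat values were not clearly above background, so the fold between the group means, 2.25, is not exact and is not given as a minimum. As a detection limit, the dimmest detected signal of an array was used or, if higher, the signal of the probe itself. Here this limit gave the same 2.25 fold, so it set no separate minimum. The measured difference was 1.17 ± 0.32 (SE), with an adjusted p of 0.341 in limma, and 1.32 with an adjusted p of 0.0761 with the slide as a block. It was 0.65 within slide 1 and 1.98 within slide 2, and without post-heartbeat replicate 3 it was 0.80. After normexp background correction it was 0.33, and Sema3c was not in the selection. Its second probe gave -6.46, -5.33 and -6.51 before and -5.51, -5.68 and -5.23 after heartbeat initiation, and a difference of 0.63 ± 0.33 (SE). Pre-heartbeat replicate 2 overlapped the other group. This second probe also passed the filter through the post-heartbeat group alone, with 1 pre-heartbeat array well above background.

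The mean level of other marker lists also separated the groups. For 7 tested neural crest markers it was between -2.64 and -2.02 before and between -3.08 and -2.79 after heartbeat initiation. Of these 7, 1 had a higher post-heartbeat mean, and Foxd3 was not well above background on any array. For 6 tested erythroid markers the mean level was between -4.31 and -4.03 before and between -4.00 and -3.74 after. The 6 did not move together, as only 3 had higher post-heartbeat means, with differences from -0.61 to 1.26. Gata1 and Slc4a1 were not well above background on any array. The mean level of 14 endothelial markers overlapped, between -0.79 and -0.67 before and between -0.88 and -0.75 after. So did that of 7 tested neural ectoderm markers, between -2.34 and -1.57 before and between -2.64 and -1.98 after. Of these 7, 4 had higher post-heartbeat means, and differences ran from -1.56 to 0.43. Limma called 1 of the 7, as lower, at an adjusted p of 0.0199. The part of these levels and of the higher muscle list in the differences of Slit3, Robo2 and Sema3c was not tested.

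Among the other semaphorins, Sema4d and Sema3a also had higher post-heartbeat values without overlap. Sema4d, a membrane-bound ligand of plexin B receptors, gave -6.46, -7.83 and -6.39 before and -6.34, -6.00 and -5.93 after heartbeat initiation. Its difference of 0.80 ± 0.39 (SE) rested on pre-heartbeat replicate 2, without which it was 0.34, and only 1 pre-heartbeat array was well above background. Sema3a, a secreted repellent, gave -3.83, -4.09 and -3.87 before and -3.82, -3.79 and -3.29 after, with the nearest arrays of the groups almost level and a difference of 0.29 ± 0.19 (SE), which was 0.12 without post-heartbeat replicate 3. The adjusted p was 0.813 for Sema4d and 0.866 for Sema3a in limma.

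Sema5a and Sema6d, both transmembrane semaphorins, had lower post-heartbeat values. Sema5a gave -3.32, -3.36 and -3.25 before and -4.00, -3.93 and -3.50 after heartbeat initiation, with post-heartbeat replicate 3 nearest to the pre-heartbeat group. The difference was -0.50 ± 0.17 (SE), with an adjusted p of 0.532 in limma, and its second probe gave -0.40 ± 0.23 (SE) with overlapping groups. Sema6d, known in the chick for effects on cardiac morphogenesis through plexin A1, gave -3.28, -2.86 and -2.79 before and -3.41, -3.46 and -3.51 after heartbeat initiation. The post-heartbeat arrays lay close together, and pre-heartbeat replicate 1 was the nearest to them. The difference was -0.48 ± 0.17 (SE), with an adjusted p of 0.566 in limma, and -0.15 within slide 1 and -0.68 within slide 2. The other probe of Sema6d was well above background on 1 array only.

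Of the 14 tested semaphorins, 9 had higher and 5 had lower post-heartbeat means, with a median difference of 0.23 without and 0.12 with the slide as a block. Sema3b and Sema3f, whose probes lie 86.4 kb apart on chromosome 8 of rn4, had differences of -0.24 ± 0.23 and 0.70 ± 0.50 (SE), both with overlapping groups. Sema3f was measured at 0.98, -0.98 and 0.30 before and at 1.28, 0.87 and 0.26 after heartbeat initiation, where pre-heartbeat replicate 2 alone was far below the other arrays, and without that array its difference was 0.16. Sema3d and Sema3e, a ligand of plexin D1, were not well above background on any array, and no difference is given for them.

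Among the receptors of the class 3 semaphorins, Nrp2, a neuropilin, gave -5.84, -5.54 and -5.61 before and -6.14, -6.25 and -5.89 after heartbeat initiation, without overlap, and was well above background on 2 post-heartbeat arrays. The difference was -0.43 ± 0.16 (SE), with an adjusted p of 0.614 in limma and 0.419 with the slide as a block, and the values within slides were -0.36 and -0.32. Nrp1, the other neuropilin and a co-receptor for VEGF, gave -1.30, -0.35 and -0.31 before and -1.70, -1.37 and -0.38 after heartbeat initiation. The groups overlapped, and the 3 arrays of slide 2 were the 3 highest. The difference of Nrp1 was -0.50 ± 0.41 (SE) without and -0.14 ± 0.15 (SE) with the slide as a block, so its size depended on the slide. Plxnd1, which binds Sema3e and neuropilin complexes in vessels, and Plxna2, a receptor of class 3 and class 6 semaphorins, had differences of 0.25 ± 0.29 and -0.01 ± 0.25 (SE). The sign of Plxna2 turned with the slide as a block, to 0.14. Of the 4 tested plexins, none had groups that did not overlap.

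**Figure D2:**
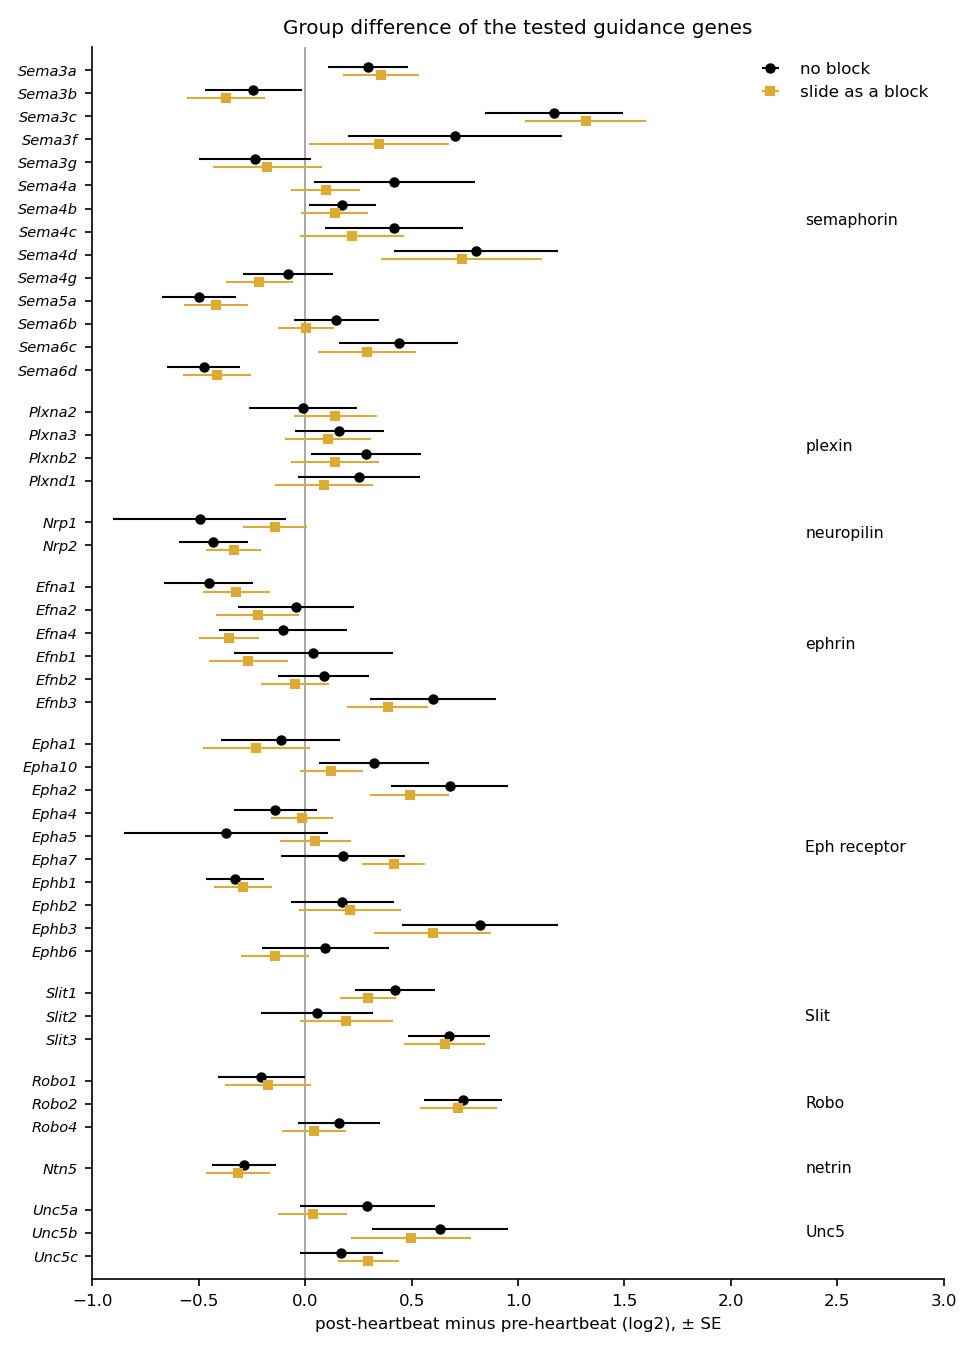
Difference of post-heartbeat minus pre-heartbeat means on the log2 scale ± SE (x axis) for the 46 tested guidance genes by family, from limma without a block (black circles) and with the slide as a block (yellow squares). Sema3c, Robo2 and Slit3 stand farthest from 0 relative to their SE on the right, and Epha5, Sema3f and Nrp1 move most between the fits.

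The ephrins and Eph receptors showed no gene past either threshold. Of the receptors, Ephb1 had the lower post-heartbeat values, with -1.16, -1.04 and -0.88 before and -1.37, -1.35 and -1.34 after heartbeat initiation. The post-heartbeat arrays lay within a narrow range below all pre-heartbeat arrays. The difference was -0.33 ± 0.14 (SE), with an adjusted p of 0.712 in limma. The second probe of Ephb1 gave a difference of -0.34 ± 0.18 (SE) with overlapping groups.

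Epha2, a receptor of A-class ephrins, gave -0.83, -1.59 and -1.24 before and -0.09, -0.62 and -0.91 after heartbeat initiation, where post-heartbeat replicate 3 overlapped pre-heartbeat replicate 1. The difference was 0.68 ± 0.27 (SE), with an adjusted p of 0.680 in limma, and it was 0.48 within slide 1 and 0.50 within slide 2. Its second probe, not well above background on 2 of the pre-heartbeat arrays, gave 1.05 ± 0.39 (SE). Ephb3 had a difference of 0.82 ± 0.36 (SE), in which pre-heartbeat replicate 2 at 0.13 was below the other 5 arrays, between 1.11 and 1.95, and without that array the difference was 0.41. The other 7 tested Eph receptors had differences between -0.37 and 0.32 with overlapping groups. Epha3, a receptor known in the endocardial cushions, was not well above background on any array.

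Among the ligands of these receptors, the 3 tested A-class ephrins had lower post-heartbeat means, with and without the block and under each normalization. Efna2 and Efna4 had higher means, by 0.19 and 0.16, without post-heartbeat replicate 3, and by 0.09 and 0.13 without pre-heartbeat replicate 1. Efna1, first known as a product of endothelial cells, gave 2.48, 2.89 and 2.94 before and 1.98, 2.41 and 2.55 after heartbeat initiation. Its groups overlapped at 2.48 and 2.55, and the difference was -0.45 ± 0.21 (SE), with an adjusted p of 0.785 in limma. The differences of Efna2 and Efna4 were -0.04 ± 0.27 and -0.11 ± 0.30 (SE). Efna5 was not tested, because it was well above background on 2 pre-heartbeat and on no post-heartbeat arrays. It gave -5.54, -5.96 and -5.60 before and -6.53, -6.42 and -6.50 after heartbeat initiation without overlap, and no fold is given because 1 pre-heartbeat array was not well above background either. Efnb2, the B-class ephrin of arterial endothelium, and Efnb1 had differences of 0.09 ± 0.21 and 0.04 ± 0.37 (SE), both of which became negative with the slide as a block, at -0.05 and -0.27. Efnb3 had a difference of 0.60 ± 0.30 (SE) with overlapping groups, which was 0.39 with the slide as a block and 0.34 without pre-heartbeat replicate 2.

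Ntn5, the only netrin tested, gave -5.66, -6.03 and -5.81 before and -6.08, -6.21 and -6.08 after heartbeat initiation, without overlap but with only 1 post-heartbeat array well above background. Its difference was -0.29 ± 0.15 (SE), with an adjusted p of 0.859 in limma. Ntn1, the family member best known in axon guidance, stayed between -8.29 and -7.76 on all 6 arrays and was not well above background on any. All 3 Unc5 receptors had higher post-heartbeat means, with and without the block and under each normalization, and overlapping groups. Unc5b, known in endothelial cells, gave -1.98, -2.88 and -1.76 before and -1.25, -1.57 and -1.91 after heartbeat initiation, where post-heartbeat replicate 3 lay within the pre-heartbeat range. Its difference was 0.64 ± 0.32 (SE), with an adjusted p of 0.843 in limma, and 0.30 without pre-heartbeat replicate 2.

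Across the 46 tested genes, 29 had a higher and 17 a lower post-heartbeat mean. The median difference was 0.16, against -0.03 over all tested probes, and 0.09 against -0.02 with the slide as a block. Without pre-heartbeat replicate 2, the median of the guidance genes was -0.00. For 20 of the 46 genes, the difference was smaller than its own SE. Of the 59 genes, 15 had more than 1 probe. Of 16 further probes, 10 were tested, and 8 of these had the sign of the brightest probe. The exceptions were those of Efna2 and Unc5c. Among the 8, the probes of Sema3c and Epha2 passed the filter through the post-heartbeat group alone, so their sign was partly set by it.

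**Figure D3:**
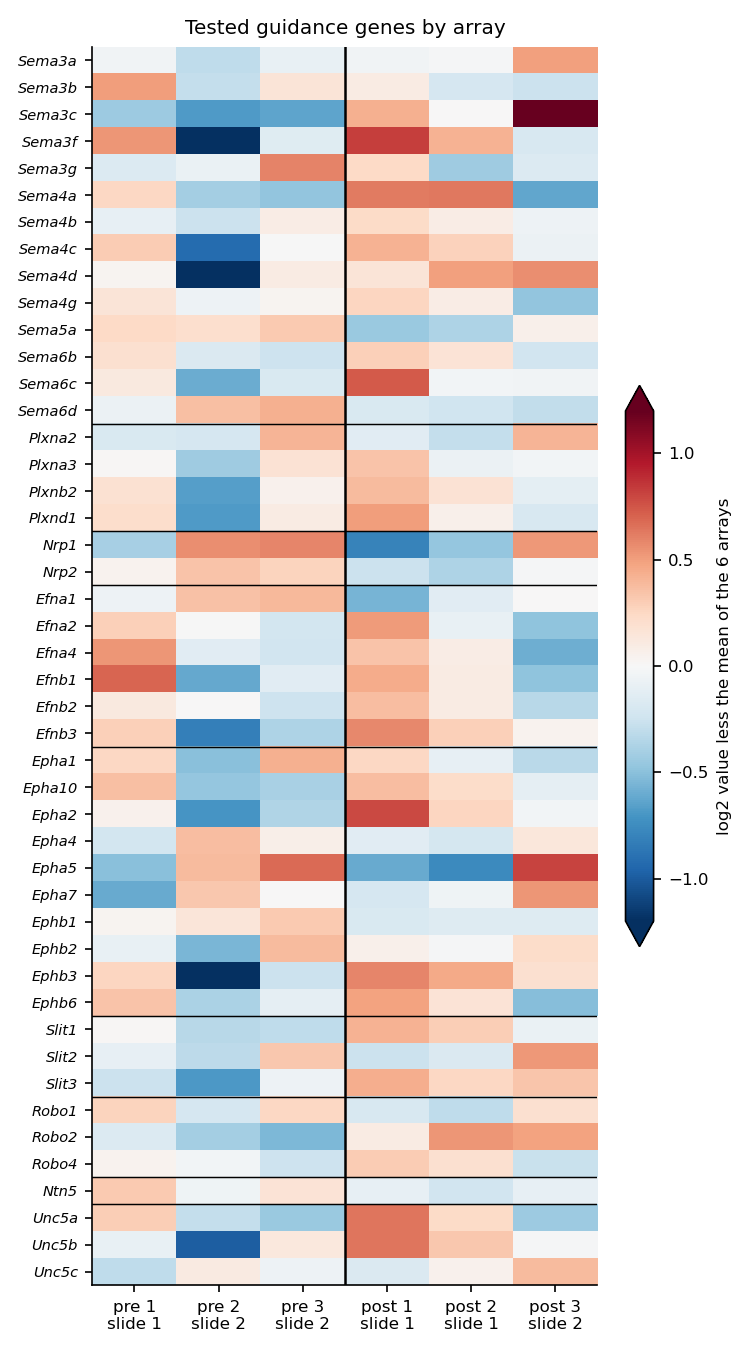
Log2 value of each of the 46 tested guidance genes (rows, by family) less its mean over the 6 arrays (colour, with the scale ending at 1.2 in either direction) in each array (columns, by group and slide). Pre-heartbeat replicate 2 holds the deepest low values, in Sema3f, Sema4d, Ephb3 and Unc5b, and rows such as Nrp1 and Epha5 follow the slide and not the group.

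The slides differed across the whole array, and the guidance genes with it. In the fit with both terms, 9 of the 46 genes (19.6%) differed between slides at an adjusted p under 0.05 in limma, near the 16.3% of all probes that did. The median absolute difference between slides was 0.41 for the 46 genes and 0.26 over all tested probes, and between groups it was 0.25 and 0.12. The slide difference was larger than the group difference in 31 of the 46 genes. Epha5 and Nrp1 were higher on slide 2, by 1.26 and 1.06, with adjusted p of 0.00347 and 0.00441 in limma, as was Epha7 by 0.71. Sema4a, Efnb1, Unc5a, Efna4, Ephb6 and Epha10 were higher on slide 1. None of these 9 genes had groups that did not overlap. Slit3 and Robo2, with slide differences of -0.06 and -0.07, were the 2 genes least moved by the slide. Within the slides, the group difference was positive on both in 20 of the 46 genes, negative on both in 13 and of opposite sign in 13.

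**Figure D4:**
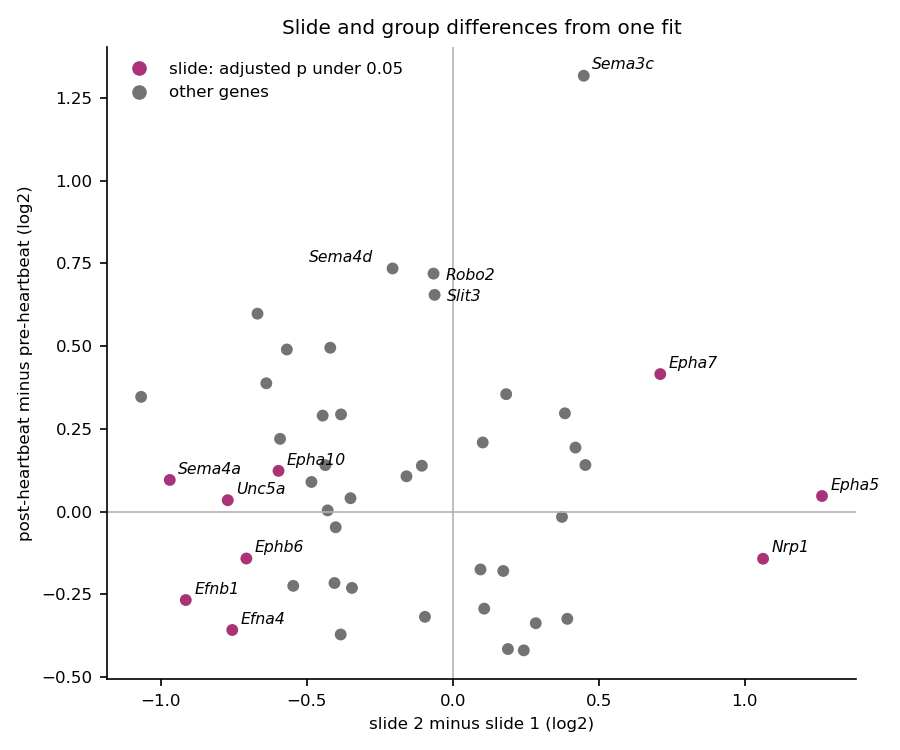
Difference of slide 2 minus slide 1 (x axis, log2) against the difference of post-heartbeat minus pre-heartbeat (y axis, log2) for the 46 tested guidance genes, from one limma fit with both terms. The 9 genes past an adjusted p of 0.05 for the slide (purple) lie far to the left and right and between -0.36 and 0.42 on the y axis, while Slit3 and Robo2 lie near 0 on the x axis.

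Genes that carry guidance signals inside the cell or assist the receptors were examined from lists. These held netrin co-receptors and related genes, Slit and Robo partners, plexin effectors, Eph effectors and actin regulators. Of 76 listed genes, 69 were on the array and 61 were tested. None passed the limma threshold in either direction, with or without the slide as a block, and none met the selection of the methods. At an unadjusted p under 0.05, limma gave 3 of the 61 (4.92%), below the 7.01% of all probes, and these 3 are named only to account for the count. Flrt3, a membrane protein that binds Robo1 and Unc5 receptors, gave 0.93, 0.84 and 0.60 before and -0.05, 0.35 and 0.52 after heartbeat initiation, without overlap, a difference of -0.51 ± 0.19 (SE). Chn1, a Rac-inactivating protein downstream of EphA4, had a difference of -0.40 ± 0.14 (SE) without overlap. Rnd1, a small GTPase that binds plexins, had a difference of 0.99 ± 0.38 (SE) with overlapping groups and 1 of 3 pre-heartbeat arrays well above background. Of the 22 plexin effectors, 17 had higher post-heartbeat means, where 44.7% of all tested probes did, with a median difference of 0.15. A majority of these 17 differences were smaller than their SE. Of the 13 actin regulators tested, 6 had higher post-heartbeat means, with a median of -0.02. Of the 7 genes on the array from the list of netrin co-receptors and related genes, 2 were tested. Both had lower post-heartbeat means, with differences of -0.29 ± 0.13 and -0.25 ± 0.52 (SE).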

How the data were processed

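Members and lists were chosen with earlier results of these data known. Per the labels, RNA was extracted from heart primordia, amplified from a low input with Cy3 and hybridised to Agilent arrays. The authors deposited the processed signal of each spot, an intensity with the background subtracted by Feature Extraction 10.7.3.1 and not normalized between arrays. They also deposited ratios, scaled in GeneSpring to the 75th percentile and a baseline per probe, which were an alternative here. Control and outlier spots were left out, log2 signals were centred on the 75th percentile of each array, and spots of a probe were averaged. A probe was well above background where at least 0.5 of its spots were. The number of arrays limits the precision.

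Groups were compared with limma 3.58.1 in R 4.3.3. Tables were made with data.table version 1.17.8, Python 3.11.15 and pandas 2.3.3, and figures with matplotlib 3.10.9. The code of the fit was checked on simulated data. Their planted differences were larger and their noise lower than for many genes here, so the check does not measure power. With 2 groups, the Tukey HSD test of the methods equals the pooled comparison, and its p was not adjusted over genes. Single genes were also compared by the exact permutation test. Slides came from the array barcodes. Of the 59 gene names, 50 were matched to current RefSeq symbols (GRCr8) through transcript accessions, and 9 keep the name of the files. Genes named are those past the limma threshold, in the selection of the methods, or without overlap and at least 0.5 apart, and a list of guidance genes with known cardiovascular roles. Sema5a, Ephb1, Ntn5, Ephb3, Efnb3, Slit1, Sema3b, Sema3f, Efna2, Efna4, the genes moved by the slide and the 3 pathway genes were named after their values were seen. So were genes that turned sign when an array was left out. Alternatives were the slide or the replicate number as a block, normexp (offset 50), quantile normalization, another percentile, other filters, the ratios of the authors, the mean of a gene's probes, an intensity trend, other thresholds and leaving out each array.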

Additional observations from a re-analysis of the deposited data

How the results depend on the processing

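Limma called none of the guidance genes and none of the other pathway genes under any alternative run. The selection of the methods, with 3 genes as higher, held 2 with the slide as a block, 1 after normexp correction, 1 at a fold threshold of 2 and 0 after Benjamini-Hochberg adjustment. Leaving out single arrays gave 1 to 2 higher and 0 to 1 lower. Of the 6 arrays left out in turn, Robo2 stayed in the selection for 5 (not without post-heartbeat replicate 3), Sema3c for 2 (without post-heartbeat replicate 2 or 3) and Slit3 for 1 (without pre-heartbeat replicate 3). With no filter, 1 gene (Efna5) was selected as lower.

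Replicate numbers are shared by the groups. The deviations from the group means of same-numbered arrays correlated at 0.65, -0.28 and 0.49 for replicates 1, 2 and 3, so the numbers were not taken as pairs. Both arrays of replicate 1 were on slide 1 and both of replicate 3 on slide 2. Those of replicate 2 were on different slides. The part of the slide in these correlations was not tested. With the replicate block, 0 genes were selected as higher and 0 passed limma.

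Genes whose groups did not overlap, 5 in each direction, were 3 higher and 3 lower with a 75th percentile taken from detected probes alone, after normexp correction and with a filter on all 6 arrays. They were 3 higher with the ratios of the authors and 8 lower with no filter. Leaving out single arrays gave 5 to 11 higher and 5 to 8 lower, as fewer arrays overlap less often. The median difference lay between -0.00 and 0.25.

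With the slide block, 5 of the 46 genes turned sign: Epha5 (-0.37 to 0.0474), Ephb6 (0.09 to -0.141), Efnb1, Efnb2 and Plxna2. Efnb1 was -0.27 with the slide block, -0.00797 after normexp correction and -0.00431 after quantile normalization, Efnb2 was -0.0471 and Plxna2 0.14 with the slide block, and Efna2 was 0.0486 as the mean of its probes. Leaving out single arrays moved Efna2 between -0.31 and 0.19, Efna4 between -0.30 and 0.16, Epha7 between -0.0766 and 0.39, Ephb6 between -0.12 and 0.37, Efnb1 between -0.26 and 0.39, Efnb2 between -0.0752 and 0.27, Plxna2 between -0.22 and 0.19, Plxnd1 between -0.0250 and 0.42 and Slit2 between -0.19 and 0.23. Epha1, Epha4, Ephb2, Plxna3, Sema3g and Sema4g also turned sign when single arrays were left out. The causes were not tested.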
